A study of Rattus norvegicus with 11 samples.

Results

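The genes described here encode the proteins that store neurotransmitter in synaptic vesicles and release it: 11 synaptotagmins, 3 Doc2 and rabphilin genes, 12 SNARE proteins and their regulators, 10 proteins of the vesicle membrane or its surface, and 11 Rab3, active zone and priming proteins. They were chosen by name as 47 listed genes, and each gene was read from the probe set that carried its symbol alone, with the highest mean where there were several. Of the 47 listed genes, 46 were measured, out of 16572 genes tested on the array. Doc2a was represented only by probe sets shared with Ino80e, so it has no value of its own. Stx1a was represented by 2 probe sets with identical values, which count as 1 measurement.

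A synaptic vesicle is docked at the active zone by Rab3 and RIM proteins and is primed for fusion by Munc13 proteins. The vesicle SNARE synaptobrevin then zippers with syntaxin and SNAP-25 of the plasma membrane, complexins hold and promote the assembled complex, and a synaptotagmin triggers fusion when calcium enters the terminal. In the dentate gyrus this machinery serves the terminals of the perforant path, the granule cells, the mossy cells and the local interneurons. Messenger RNA sits mostly in cell bodies, so an array of this tissue reads the granule cells, mossy cells, interneurons and glia of the dissected piece more than the terminals that reach it from the entorhinal cortex.

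The study compared the left dentate gyrus of adult male Sprague-Dawley rats that received a lateral fluid-percussion injury with that of sham-operated rats, in 6 TBI and 5 control animals with 1 Affymetrix Rat Gene 1.1 ST array each. The injury is a pulse of fluid pressure applied to the intact dura through a left parietal craniectomy. The controls had anesthesia and the same surgery with no impact, so both groups share the craniectomy. The tissue was taken 90 days after the operation per the sample labels, ipsilateral to the injury, and held the dentate gyrus together with the hilus. The values are log2 signals, in which a difference of 1 is a doubling, and levels of different genes are not compared because probes differ in brightness. Prox1, a transcription factor of granule cells, had a mean log2 signal of 9.27 in controls and 9.31 in TBI rats, far above the background of 3.06.

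In 3 animals, control rat 2 and TBI rats 1 and 3, the arrays stood apart from the other 8 along the main direction of variation within the groups, which held 63.9% of the within-group variance of the genes outside the list. Mean log2 signals of 10 measured markers of CA1 to CA3 pyramidal cells were 6.66, 6.61 and 6.74 in these rats and 6.74 to 7.10 in the others. Mean log2 signals of 11 granule cell markers were 7.41, 7.35 and 7.45 in them and 7.17 to 7.33 in the others. The part of the dissection in the results was not tested, and values without these rats are given after the genes have been described.

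In the TBI rats, no gene of vesicle storage or release passed the test: 0 of 46 were higher and 0 of 46 were lower at an adjusted p of 0.05 with limma and Benjamini-Hochberg adjustment over all 17905 probe sets tested. Over all of these, 0.14% passed as higher and 0.0112% as lower. Without adjustment, 4 genes were lower at p under 0.05, namely Rab3c, Syt2, Cplx1 and Syngr3, and 0 were higher. Over all probe sets, 1.87% were lower and 4.96% higher by that rule. The log2 difference was below 0 in 36 of the 46 genes (78.3%), and in 42.8% of all probe sets. With median-centred arrays it was below 0 in 39 of the 46, and in 60.8% of all genes. With a second quantile normalization it was below 0 in 33 of the 46, and in 50.1% of all genes. Where a mean log2 of at least 5 was required, it was below 0 in 35 of the 43 listed genes left, and in 47.7% of all genes. With the arrays as deposited, the median difference was -0.043 over the 46 genes, against 0.011 over all probe sets. The differences ranged from -0.27 (SE 0.095) for Syngr3 to 0.095 (SE 0.10) for Doc2b. The array holds bulk tissue, in which fewer cells of a type and less RNA per cell cannot be told apart.

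**Figure D1:**
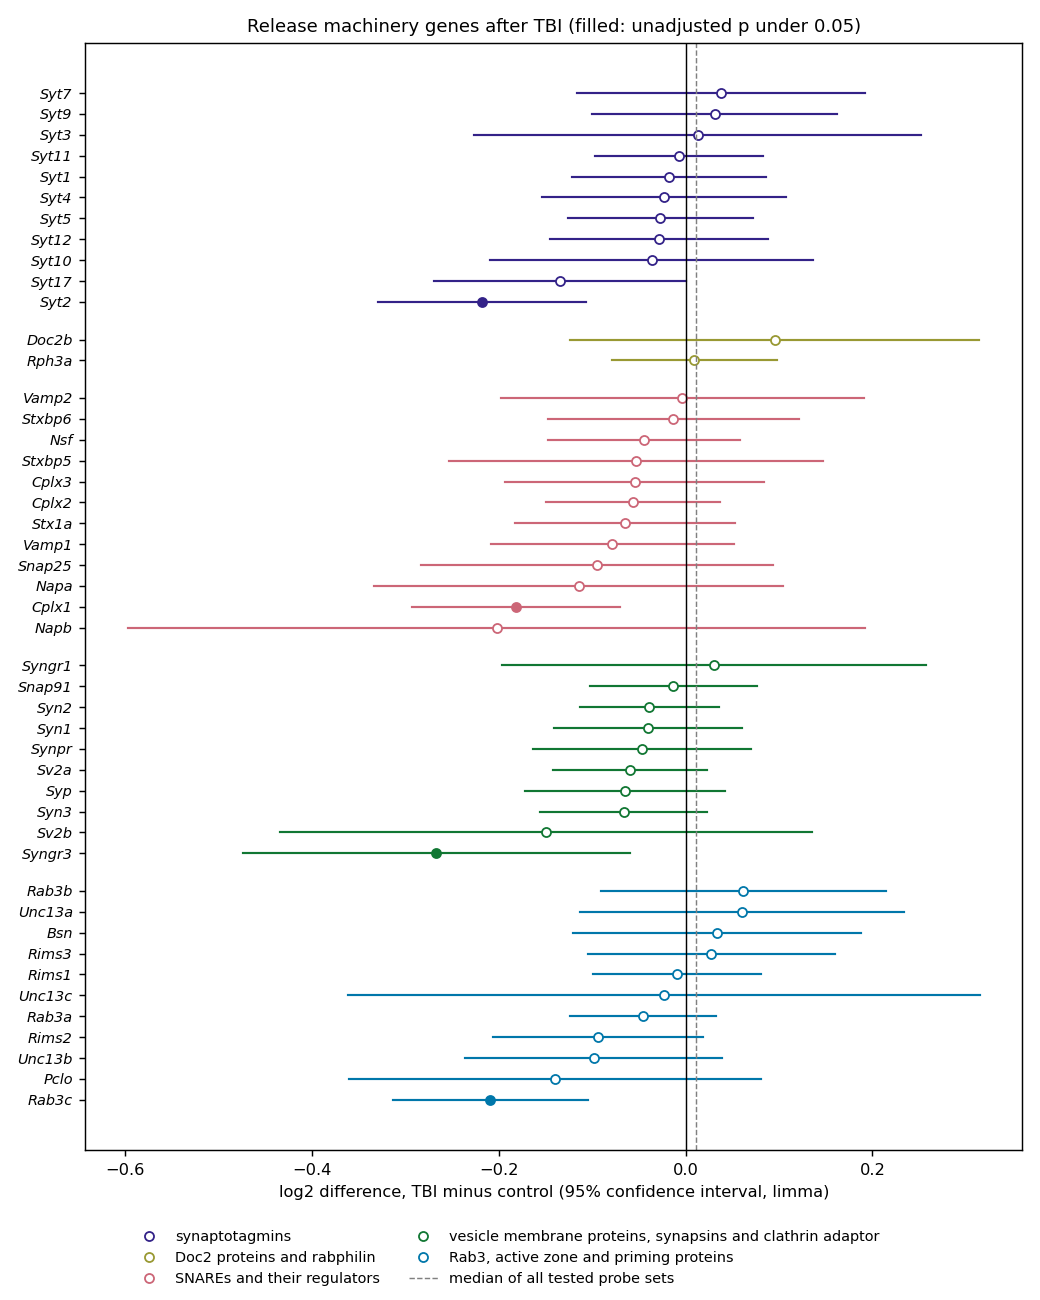
TBI minus control log2 difference (horizontal axis) of the 46 measured genes (rows, coloured by role), with the 95% confidence interval from limma as lines and filled points at an unadjusted p under 0.05. Of the 46 points 36 lie left of 0, the dashed line marks the median of all probe sets, and the filled points are Syt2, Cplx1, Syngr3 and Rab3c.

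The mean log2 signal of the 46 genes was 8.52, 8.53, 8.54, 8.55 and 8.57 in the controls. In the TBI rats the lowest, median and highest means were 8.45, 8.48 and 8.56. The highest TBI mean belonged to TBI rat 3, which lay among the controls, and the other 5 TBI rats lay below every control. The SD of this mean between rats of a group was 0.033. The within-group SD of single genes had a median of 0.10 and ranged from 0.041 to 0.34.

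The promoters of Rab3c, Syt2 and Cplx1 are shown because these genes had the lowest p of the list. They are the 250 bases before the start site that the RefSeq promoter table uses on GRCr8, written 5′ to 3′ on the strand of the gene: chr2:43575944-43576193 on the minus strand for Rab3c, chr13:48736872-48737121 on the plus strand for Syt2, and chr14:1328823-1329072 on the plus strand for Cplx1. That site is the outer start of the annotated gene for Cplx1, but it lies 1283 bases inside the annotated gene for Rab3c and 97488 bases inside it for Syt2, so the windows of these genes are upstream of an internal start. Capitals mark the GC box, GGGCGG on either strand.
Rab3c: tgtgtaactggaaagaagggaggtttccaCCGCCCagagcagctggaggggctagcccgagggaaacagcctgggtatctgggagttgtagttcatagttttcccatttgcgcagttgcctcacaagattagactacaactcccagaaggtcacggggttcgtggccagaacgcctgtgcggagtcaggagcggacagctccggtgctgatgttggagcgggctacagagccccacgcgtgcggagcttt
Syt2: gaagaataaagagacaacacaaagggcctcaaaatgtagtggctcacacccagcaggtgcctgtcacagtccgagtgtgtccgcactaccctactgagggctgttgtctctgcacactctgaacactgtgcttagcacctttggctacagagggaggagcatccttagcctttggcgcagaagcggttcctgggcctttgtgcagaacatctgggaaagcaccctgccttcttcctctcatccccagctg
Cplx1: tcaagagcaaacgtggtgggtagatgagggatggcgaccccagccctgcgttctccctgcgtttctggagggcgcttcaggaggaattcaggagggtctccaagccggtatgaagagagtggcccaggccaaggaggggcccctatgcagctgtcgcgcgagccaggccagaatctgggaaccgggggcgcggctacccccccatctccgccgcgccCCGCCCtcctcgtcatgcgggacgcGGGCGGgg
The Rab3c window held 1 GC box, starting at position -221 from the start site of the window, and the Cplx1 window held 2, starting at -33 and -8. The Syt2 window held 0, with a G and C content of 54.4% and 4 CpG dinucleotides, against 68.0% and 21 for Cplx1. RefSeq promoters were given for 34 of the 47 listed genes, in 35 windows, of which 14 end at the outer start of the gene and 21 at a start inside it. A GC box was found in 24 of these windows (68.6%) and in 30.5% of 33469 windows of the same length over all genes. The cyclic AMP response element, TGACGTCA, was found in 3 windows, those of Napa, Syn1 and Vamp1 (8.6%, against 1.59%). The letters TATAAA were in 0 of the 35 windows, against 12.9% of all. An E-box, CACGTG, was in 3 windows, those of Cplx3, Napa and Nsf (8.6%, against 5.59%). All motifs were sought on both strands and none contains another. The windows of the listed genes were also richer in G and C, with a median of 64.0% against 51.2%, and in CpG dinucleotides, with a median of 15 against 5.

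Rab3c had the lowest p of the list. It encodes a small GTPase of the Rab3 family that sits on synaptic vesicles. Its log2 signal was 8.97, 9.11, 9.11, 9.14 and 9.08 in control rats 1 to 5. In the TBI rats the lowest, median and highest were 8.72, 8.91 and 8.93. All 6 TBI rats lay below every control. Rab3c alone in the list separated the groups, with 1 gene lower and 0 higher with no overlap, where 0.207% of all probe sets were lower and 0.832% higher in that way. The mean was 9.08 ± 0.065 (SD, n = 5) in controls and 8.87 ± 0.082 (SD, n = 6) in TBI rats, a log2 difference of -0.21 (SE 0.048). The TBI level was 86.5% of the control level. The p in limma was 0.00092 and the adjusted p 0.178. With each rat left out in turn, the log2 difference lay between -0.24 and -0.18, and the p in limma lay under 0.05 in all 11 such fits.

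The other Rab3 genes had fitted differences nearer to 0. Rab3a, the main vesicle Rab3 of brain, had a log2 difference of -0.045 (SE 0.036), and Rab3b one of 0.062 (SE 0.070). For both the groups overlapped.

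The active zone scaffold and priming genes also had fitted differences nearer to 0 than Rab3c. Rims2, which encodes a RIM protein that links Rab3 to calcium channels, had a log2 signal of 7.97, 8.01, 7.97, 8.05 and 8.02 in controls. In TBI rats it was 7.81, 7.89 and 8.10 at the lowest, median and highest. TBI rat 3 was above every control and the other 5 were below every control, giving a difference of -0.094 (SE 0.051, limma adjusted p = 0.81). Unc13b, a Munc13 priming factor, read 6.27, 6.27, 6.27, 6.35 and 6.45 in controls and 6.11, 6.20 and 6.44 at the lowest, median and highest in TBI rats. TBI rats 2 and 3 lay in the range of the controls and the other 4 below it, with a difference of -0.099 (SE 0.063, limma adjusted p = 0.85). Pclo, which encodes the large scaffold Piccolo, read 8.73, 9.09, 8.79, 8.87 and 8.88 in controls and 8.49, 8.68 and 9.02 at the lowest, median and highest in TBI rats. The rats that stand apart were the highest of each group for Pclo, and the difference was -0.14 (SE 0.10, limma adjusted p = 0.87).

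Of the 11 genes of this role, 7 had a difference below 0, against 42.8% of all probe sets, and the median was -0.023. These values rested on single rats: without TBI rat 6, 5 were below 0 with a median of 0.00080, and without control rat 2, 9 were, with a median of -0.049. Bsn, which encodes the scaffold Bassoon, had a difference of 0.034 (SE 0.071), and Unc13a, the main Munc13 of forebrain, one of 0.060 (SE 0.080). Rims1 (-0.0091), Rims3 (0.027) and Unc13c (-0.023) completed the group. Only Rab3c had an unadjusted p under 0.05 among them.

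Among the synaptotagmins, Syt2 had the lowest p. Synaptotagmin-2 is a fast calcium sensor, found in rodent hippocampus chiefly in the terminals of parvalbumin-containing interneurons. Its log2 signal was 4.65, 4.55, 4.68, 4.77 and 4.69 in controls. In TBI rats the lowest, median and highest were 4.33, 4.42 and 4.55. TBI rats 2 and 6 reached the lowest control, control rat 2, and the other 4 were below every control. The mean was 4.67 ± 0.079 (SD, n = 5) against 4.45 ± 0.086 (SD, n = 6), a log2 difference of -0.22 (SE 0.051), so the TBI level was 86.0% of the control level. The p in limma was 0.0011 and the adjusted p 0.197. With each rat left out in turn the difference lay between -0.25 and -0.19, with a p under 0.05 in all 11 fits. The Syt2 signal was low: in every rat it lay below the lowest array median, 5.26. Syt2 drops out where a mean log2 of at least 5 is required.

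Syt1, the fast calcium sensor of most forebrain terminals, read 10.48, 10.65, 10.59, 10.65 and 10.61 in controls. In TBI rats it was 10.45, 10.58 and 10.67 at the lowest, median and highest. The groups overlapped almost completely, and the difference was -0.018 (95% confidence interval -0.12 to 0.086). The difference between the Syt2 and the Syt1 result was not tested.

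Syt17 encodes a synaptotagmin-like protein also called B/K. It read 9.25, 9.50, 9.25, 9.30 and 9.28 in controls and 9.06, 9.17 and 9.34 at the lowest, median and highest in TBI rats. The 4 TBI rats other than 1 and 3 were below every control, and the difference was -0.13 (SE 0.062, limma adjusted p = 0.73). Control rat 2 stood above the other controls.

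Syt5, a vesicle synaptotagmin, read 8.80, 8.84, 8.85, 8.77 and 8.77 in controls and 8.72, 8.75 and 8.95 at the lowest, median and highest in TBI rats. TBI rat 2 was above every other rat and the groups overlapped, with a difference of -0.027 (SE 0.046). Syt7, a slow calcium sensor of asynchronous release and facilitation, read 9.68, 9.26, 9.54, 9.52 and 9.55 in controls and 9.37, 9.58 and 9.64 at the lowest, median and highest in TBI rats. All TBI rats lay in the range of the controls, with a difference of 0.038 (SE 0.070), which was -0.024 without control rat 2. Over the 11 synaptotagmins, 8 differences were below 0, against 42.8% of all probe sets, and the median was -0.024. With single rats left out, the count ranged from 6 (without control rat 5) to 10 (without control rat 2), and the median from -0.048 (without control rat 1) to -0.010 (without control rat 3). The others were Syt3 (0.013), Syt4 (-0.024), Syt9 (0.031), Syt10 (-0.036), Syt11 (-0.0073) and Syt12 (-0.028), as log2 differences, with limma adjusted p of 0.95 or more each.

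Doc2b encodes a calcium sensor with high affinity that takes part in spontaneous release. It read 7.38, 7.16, 7.39, 7.37 and 7.45 in controls and 7.09, 7.42 and 7.78 at the lowest, median and highest in TBI rats. TBI rat 1 was the lowest of all rats and TBI rats 4 and 6 the highest, and the difference was 0.095 (SE 0.10, limma adjusted p = 0.91). It was 0.028 without TBI rat 4, 0.049 without control rat 2 and 0.17 without TBI rat 1. Rph3a encodes rabphilin, which binds Rab3 on the vesicle. It read 8.87, 8.75, 8.83, 8.83 and 8.83 in controls and 8.74, 8.83 and 8.91 at the lowest, median and highest in TBI rats. The groups overlapped, with a difference of 0.0090 (SE 0.040), which was below 0 with median-centred arrays.

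All 12 measured SNARE genes and regulators had a log2 difference below 0 with the arrays as deposited, against 42.8% of all probe sets. Their median was -0.061 and their range -0.20 to -0.0035. With a second quantile normalization 10 of the 12 were below 0, with Stxbp6 and Vamp2 above. Without the 3 rats that stand apart, and with array weights, 10 were, with Cplx3 and Vamp2 above. With single rats left out, 11 or 12 were below 0. Cplx1 alone among the 12 had an unadjusted p under 0.05. It encodes complexin-1, which in rat forebrain is found more in inhibitory terminals, whereas complexin-2 is found more in excitatory ones. Cplx1 read 8.90, 8.72, 8.78, 8.78 and 8.85 in controls. In TBI rats the lowest, median and highest were 8.51, 8.65 and 8.74. TBI rat 2 alone reached the range of the controls. The mean was 8.80 ± 0.069 (SD, n = 5) against 8.62 ± 0.092 (SD, n = 6), a difference of -0.18 (SE 0.051), so the TBI level was 88.2% of the control level. The p in limma was 0.0040 and the adjusted p 0.332. With each rat left out in turn the p lay between 0.0018 and 0.012.

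Cplx2 read 10.47, 10.39, 10.28, 10.33 and 10.33 in controls and 10.24, 10.29 and 10.40 at the lowest, median and highest in TBI rats. The groups overlapped, with a difference of -0.056 (SE 0.043, limma adjusted p = 0.87). The difference between the Cplx1 and the Cplx2 result was not tested. Cplx3, chiefly known from retina, had a difference of -0.055 (SE 0.063).

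The core SNARE genes gave no difference past the test. Snap25, the plasma membrane SNARE SNAP-25, read 11.11, 11.49, 11.26, 11.39 and 11.30 in controls and 11.03, 11.18 and 11.42 at the lowest, median and highest in TBI rats. Control rat 2 and TBI rats 1 and 3 were the highest of their groups, and the difference was -0.095 (95% confidence interval -0.28 to 0.093). Stx1a, syntaxin-1A, read 7.84, 7.68, 7.78, 7.81 and 7.85 in controls and 7.54, 7.75 and 7.84 at the lowest, median and highest in TBI rats. The groups overlapped except for TBI rat 1, the lowest of all, with a difference of -0.065 (95% confidence interval -0.18 to 0.052).

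Vamp2, synaptobrevin-2, the main vesicle SNARE of forebrain, read 9.94, 9.64, 9.76, 9.71 and 9.82 in controls. In TBI rats it was 9.41, 9.85 and 9.91 at the lowest, median and highest. TBI rat 1 was the lowest of all and the others lay in the range of the controls, with a difference of -0.0035 (95% confidence interval -0.20 to 0.19), which was 0.068 without TBI rat 1. Vamp1, synaptobrevin-1, read 9.72, 9.57, 9.64, 9.72 and 9.82 in controls and 9.49, 9.60 and 9.78 at the lowest, median and highest in TBI rats. TBI rats 1 and 4 were below every control, with a difference of -0.078 (SE 0.059, limma adjusted p = 0.87).

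The genes that take SNARE complexes apart were Nsf, the ATPase, with a difference of -0.045 (SE 0.047), and its adaptors Napa, with -0.11 (SE 0.10), and Napb, with -0.20 (SE 0.18). Napb, beta-SNAP, had the widest spread of the 46 genes. It read 8.83, 9.38, 9.02, 9.19 and 9.07 in controls and 8.41, 8.82 and 9.46 at the lowest, median and highest in TBI rats. The highest TBI rats were 1 and 3 and the highest control was control rat 2. The inhibitors of SNARE assembly Stxbp5, tomosyn, and Stxbp6, amisyn, had differences of -0.053 (SE 0.092) and -0.013 (SE 0.062).

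Of the 10 genes of the vesicle membrane and surface, 9 had a difference below 0, against 42.8% of all probe sets, and the median was -0.053. With single rats left out, 8 to 10 of them were below 0. Syngr3 had the most negative difference of the whole list. It encodes synaptogyrin-3, a vesicle protein that spans the membrane and, in mouse, binds the dopamine transporter. Its log2 signal was 8.28, 8.74, 8.34, 8.54 and 8.51 in controls. In TBI rats the lowest, median and highest were 7.98, 8.21 and 8.45. TBI rats 1 and 3 lay in the range of the controls and the other 4 below it. The mean was 8.48 ± 0.18 (SD, n = 5) against 8.22 ± 0.16 (SD, n = 6), a difference of -0.27 (SE 0.095), so the TBI level was 83.1% of the control level. The p in limma was 0.016 and the adjusted p 0.559, and the p lay between 0.0053 and 0.044 with each rat left out in turn. Syngr1, its relative, had a difference of 0.031 (SE 0.10).

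Syp, synaptophysin, the most widely used marker of synaptic vesicles, read 10.23, 10.29, 10.24, 10.26 and 10.28 in controls and 10.06, 10.19 and 10.34 at the lowest, median and highest in TBI rats. TBI rat 3 was the highest of all rats and 4 TBI rats were below every control, with a difference of -0.065 (SE 0.049, limma adjusted p = 0.87). Sv2a, the vesicle protein to which the antiseizure drug levetiracetam binds, read 9.20, 9.07, 9.10, 9.10 and 9.20 in controls and 9.01, 9.09 and 9.11 at the lowest, median and highest in TBI rats. TBI rats 1, 5 and 6 were below every control, and the difference was -0.060 (SE 0.038, limma adjusted p = 0.84). Syn3, a synapsin, read 7.04, 6.93, 6.91, 7.00 and 6.93 in controls and 6.81, 6.91 and 6.95 at the lowest, median and highest in TBI rats. TBI rats 1, 2 and 5 were below every control, with a difference of -0.066 (SE 0.041, limma adjusted p = 0.84).

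Synpr, synaptoporin, is abundant in mossy fibre terminals of rodents. It read 8.69, 8.77, 8.83, 8.80 and 8.73 in controls and 8.57, 8.69 and 8.86 at the lowest, median and highest in TBI rats, with a difference of -0.047 (SE 0.053). TBI rat 1 was above every control and 3 TBI rats were below every control. The synapsins Syn1 and Syn2, which tether the reserve pool of vesicles, had differences of -0.040 (SE 0.046) and -0.039 (SE 0.034). Sv2b had one of -0.15 (SE 0.13) and Snap91, a clathrin adaptor of vesicle retrieval, one of -0.013 (SE 0.041).

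**Figure D2:**
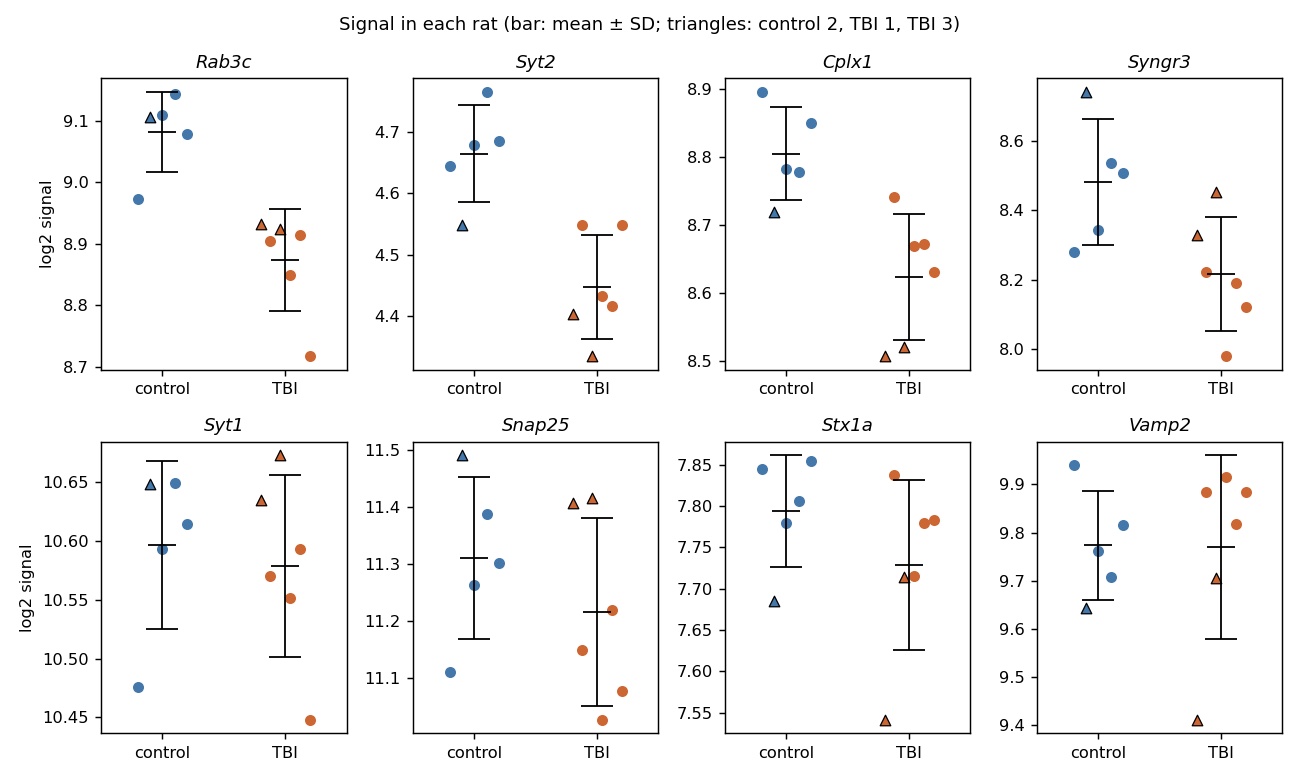
Log2 signal (vertical axis, a separate range for each gene) of each rat in the 5 controls and 6 TBI rats for 8 genes, with the mean and SD of each group as bars and control rat 2 and TBI rats 1 and 3 as triangles. Rab3c is lower in all TBI rats than in any control, and the groups overlap in Syt1, Snap25, Stx1a and Vamp2.

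Most of the variation among rats of a group ran along the direction on which control rat 2 and TBI rats 1 and 3 stood apart. It held 61.9% of the within-group variance of the 46 genes, although they had been left out when it was computed. In 9 genes these rats were above all other rats of their own group: Napa, Napb, Pclo, Snap25, Stxbp5, Stxbp6, Syngr3, Syp and Syt17. In 11 genes they were below all others of their group: Bsn, Cplx1, Doc2b, Stx1a, Syngr1, Syt11, Syt2, Syt3, Syt7, Unc13a and Vamp2. Over all probe sets these shares were 19.0% above and 12.3% below.

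**Figure D3:**
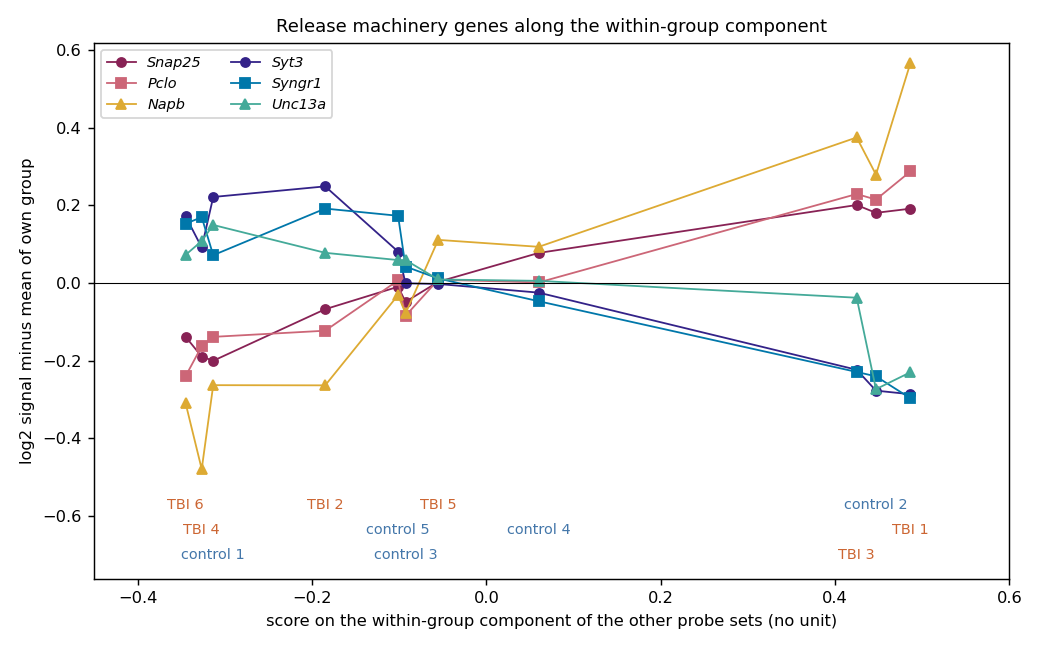
Log2 signal minus the mean of the rat's own group (vertical axis) for Snap25, Pclo, Napb, Syt3, Syngr1 and Unc13a, against the score of each rat on the main direction of within-group variation (horizontal axis, no unit), with rats named below the points and lines joining the points of a gene. Control rat 2 and TBI rats 1 and 3 lie to the right, with scores of 0.447, 0.486 and 0.425, and the other rats between -0.345 and 0.060; the 6 genes were picked from the ends of this pattern after their values were seen.

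Without these 3 rats, 4 controls and 4 TBI rats remained, and 14 genes were lower at an unadjusted p under 0.05 in limma, against 10.4% of all probe sets, while 0 passed adjustment, against 0.514% of all probe sets in the lower direction. The 14 held Rab3c, Syt2, Syngr3 and Cplx1, with adjusted p of 0.074, 0.063, 0.076 and 0.10. The other 10 were Pclo, Syt17, Rims2, Napb, Stxbp5, Syp, Unc13b, Synpr, Stxbp6 and Snap25, with log2 differences from -0.37 (Napb) to -0.076 (Stxbp6). Among them Pclo had -0.22, Snap25 -0.15, Stxbp5 -0.14, Rims2 -0.15, Unc13b -0.14, Synpr -0.11 and Syp -0.11, each farther from 0 than with all rats. The 14 genes were picked by their p in this same fit. For Napb, Pclo, Snap25, Stxbp5, Stxbp6, Syngr3, Syp and Syt17, all among the 14, the rats left out were the highest of each group. The rats left out were also a larger share of the TBI rats than of the controls. Leaving them out can by itself lower the difference of genes in which they are highest and raise it where they are lowest. The part of this in the values was not tested. Of the genes in which these rats were lowest, other than Syt2 and Cplx1, Doc2b had 0.15 without them, Syngr1 0.10, Syt3 0.071, Vamp2 0.069, Unc13a 0.059, Bsn 0.055, Syt7 0.025, Syt11 0.0055 and Stx1a -0.042. Leaving out TBI rat 3 alone gave 8 genes lower at an unadjusted p under 0.05, against 3.74% of all probe sets. Centring each array on its median, with all rats kept, also gave 8, against 4.04%. With all rats kept but weighted by how closely each array followed the others, these 3 rats had weights of 0.44, 0.34 and 0.35. Then 11 genes were lower at an unadjusted p under 0.05, against 7.66% of all probe sets. Of these, Syt2 (log2 difference -0.24, limma adjusted p = 0.012) and Rab3c (-0.22, adjusted p = 0.014) passed adjustment, as 0.374% of all probe sets did in the lower direction.

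Other genes of the vesicle cycle were read from lists outside the 46. Of 53 other release genes, 45 were tested and 0 passed adjustment. At an unadjusted p under 0.05 in limma 2 were higher and 3 lower, against 4.96% and 1.87% of all probe sets. The median difference was -0.016. Vamp8, a SNARE of endosomes and secretory granules found mainly outside neurons, read 5.38, 4.97, 5.27, 5.34 and 5.26 in controls and 5.37 to 5.67 in TBI rats, a difference of 0.25 (SE 0.078, limma adjusted p = 0.44). Stxbp2, Munc18-2, known from secretory blood and epithelial cells, had a difference of 0.19 (SE 0.061, limma adjusted p = 0.45). Lin7a, a synaptic scaffold protein, read 7.39, 7.62, 7.47, 7.54 and 7.50 in controls and 7.12 to 7.51 in TBI rats. TBI rats 1 and 3 lay among the controls and the other 4 below them, and the difference was -0.24 (SE 0.077, limma adjusted p = 0.48). It passed adjustment without the 3 rats that stand apart (-0.31, adjusted p = 0.015) and with array weights (-0.30, adjusted p = 0.010).

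Genes of vesicle recycling, which retrieve membrane after fusion, gave 0 of 22 tested in either direction at an unadjusted p under 0.05. Over all probe sets 4.96% were higher and 1.87% lower by that rule. The median of the recycling genes was -0.053. Dnm2, dynamin-2, had a difference of 0.10 (SE 0.049), Dnajc6, auxilin, one of -0.086 (SE 0.045), and Ap2m1, the medium subunit of the clathrin adaptor AP-2, one of -0.13 (SE 0.076).

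Genes of vesicle filling had the lowest median of the vesicle lists, -0.11 over 23 tested. Of these, 20 were below 0, against 42.8% of all probe sets. After adjustment 0 passed, and 3 were lower at an unadjusted p under 0.05 in limma, against 1.87% of all probe sets. Their mean log2 signal overlapped between the groups, at 8.09 to 8.32 in controls and 8.01 to 8.27 in TBI rats. Control rat 2 and TBI rats 1 and 3 had the highest means of their groups. Most of the 23 filling genes, 16, are subunits of the V-ATPase, the proton pump that energises transmitter uptake, so the list chiefly reads this pump. Of the 16 subunits, 14 had a difference below 0, with a median of -0.12 (-0.074 without control rat 2). Atp6v0b, a subunit of its membrane sector, read 9.26, 9.17, 9.15, 9.18 and 9.16 in controls and 8.99, 9.05 and 9.10 at the lowest, median and highest in TBI rats. All TBI rats were below every control, with a difference of -0.14 (SE 0.034, limma adjusted p = 0.246), which passed adjustment with array weights (-0.13, adjusted p = 0.041). Atp6v1g2, a neuronal subunit of the cytosolic sector, had a difference of -0.12 (SE 0.039, limma adjusted p = 0.45). Slc17a6, the vesicular glutamate transporter VGLUT2, had one of -0.14 (SE 0.053, limma adjusted p = 0.62) at a signal of 3.89 in controls, near the background of 3.06.

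Markers of cell types in the dissected dentate gyrus were read beside the vesicle and release genes. Over all probe sets, 0.0112% were lower and 0.14% higher after adjustment. At an unadjusted p under 0.05 in limma, 1.87% were lower and 4.96% higher, and 42.8% had a difference below 0. Of 18 measured interneuron markers, 1 passed adjustment as lower, Pvalb (log2 difference -0.60, limma adjusted p = 0.0057), and 9 were lower at an unadjusted p under 0.05, with a median of -0.19. Their mean log2 signal was 6.54 to 6.64 in controls and 6.33 to 6.47 in TBI rats, with no overlap. Their summed signal on the linear scale was 3043 to 3415 in controls and 2395 to 2921 in TBI rats. Of 13 pan-neuronal markers, 0 passed adjustment and 4 were lower at an unadjusted p under 0.05, with a median of -0.055. Of these 13, 10 had a difference below 0 (76.9%). Their summed signal was 10282 to 10740 in controls and 9832 to 10748 in TBI rats. Their mean log2 signal was 9.18 to 9.27 in controls. It was 9.10 to 9.17 in TBI rats 1, 2, 4, 5 and 6, below every control, and 9.22 in TBI rat 3. The same TBI rats lay below every control in the mean of the listed vesicle and release genes. Of 11 granule cell markers 1 was lower at an unadjusted p under 0.05, Pdyn, which encodes prodynorphin (-0.41, limma adjusted p = 0.62), and the median was 0.015. Their mean log2 signal was 7.26 to 7.41 in controls. It was 7.17 to 7.22 in TBI rats 2, 4, 5 and 6, below every control, and 7.35 and 7.45 in TBI rats 1 and 3. The 10 pyramidal cell markers had a median of -0.0086, with 0 past an unadjusted p of 0.05 in limma. Of 12 astrocyte markers 2 were higher after adjustment and 5 without it, with a median of 0.16. Of 14 markers of microglia and phagocytes 1 was higher after adjustment, and without it 4 were higher and 1 lower, with a median of 0.18. The 11 oligodendrocyte markers had a median of -0.072, with 0 past an unadjusted p of 0.05 in limma. The part of cell numbers in the results for Rab3c, Syt2, Cplx1 and Syngr3 was not tested.

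**Figure D4:**
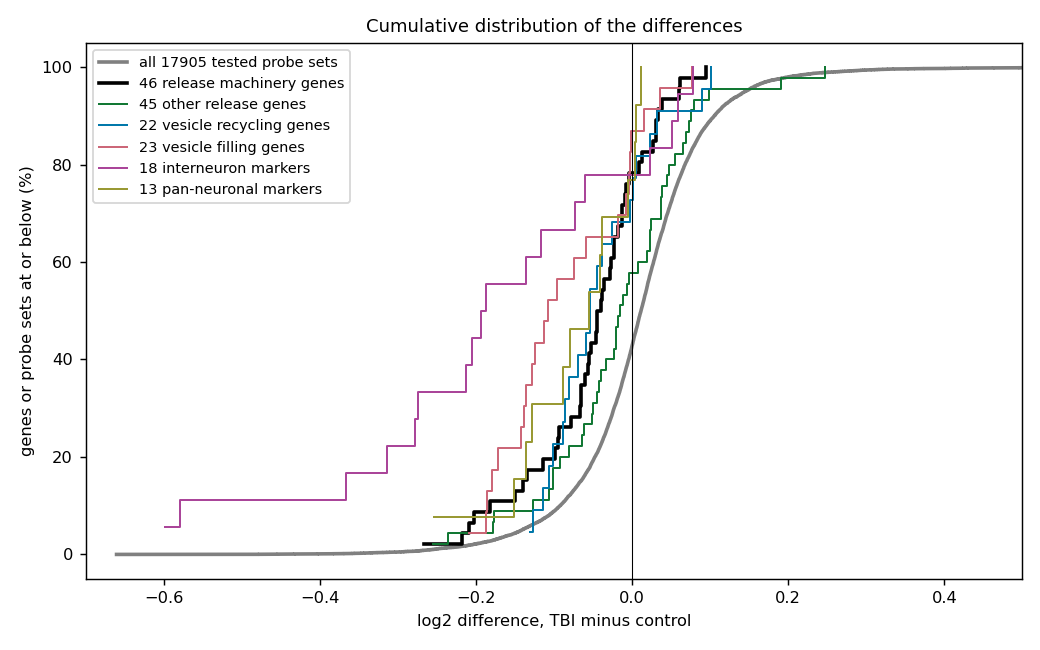
Cumulative share of genes or probe sets (vertical axis, %) at or below each TBI minus control log2 difference (horizontal axis), for the 46 vesicle and release genes, other lists and all 17905 probe sets. The curve of the 46 genes crosses its midpoint to the left of that of all probe sets, with a median of -0.043 against 0.011, and that of the 18 interneuron markers lies farther left, with a median of -0.19.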

How the data were processed

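RNA of the left dentate gyrus of 11 rats was hybridised to 1 array each. The deposited table holds 29214 probe sets as log2 signals that the authors had normalized with Robust Multi-array Average (oligo 1.30.0 per the submitters' processing notes, an earlier version in the methods). That step equalizes the arrays, so a shift common to all genes is not measured. Array medians were 5.26 to 5.35, and no depth applies. The annotation gave 1 symbol for 18644 probe sets, several for 962 and none for 9608. A background of 3.06, the lowest value of a supplementary table of the study, replaced lower values (487 among tested probe sets, 0 in the 46 genes), and 739 probe sets that reached no higher in over 5 arrays were dropped. The remaining 17905 were fitted in R 4.3.3 by limma 3.58.1 (lmFit, then eBayes, 2-sided, TBI against control), adjusted by Benjamini-Hochberg over all, with a threshold of 0.05. Before that, the fit was tested on simulated arrays with independent noise in each probe set. Those arrays lacked the shared direction of within-group variation seen here, so they do not bear on calls made under it. The labels call the rats biological replicates. Replicate numbers were not taken to pair rats.

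The members and all lists were chosen with earlier results of these data known. Values are given for the genes with the lowest p in each role or other pathway list, for genes whose groups do not overlap, and for Syt1, Snap25, Stx1a and Vamp2. Others are given as differences or counts, except Napb and Synpr, which were chosen after their values were seen. The rats that stand apart were found by a singular value decomposition of the probe sets outside the list, each group centred on its mean. Results were recomputed without floor or filter, on probe sets with a mean log2 of at least 5, with median-centred arrays, with quantile normalization applied again, with limma's trend and robust options, with the methods' analysis of variance, with array weights, with the replicate number as block, with the probe sets of a gene averaged, and without each rat in turn. Leaving out the 3 rats that stand apart was chosen after seeing the data.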

Additional observations from a re-analysis of the deposited data

Results flagged for a closer look

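In 5 of 60 gene-and-group pairs examined, the highest or lowest rat lay farther from the others of its group than Dixon's 95% critical value allows, where chance gives about 3. Control rat 2 had the highest Syt17 signal of the controls (9.50, next 9.30), the lowest Doc2b (7.16, next 7.37), the lowest Rph3a (8.75, next 8.83) and the lowest Vamp8 (4.97, next 5.26). TBI rat 2 had the highest Syt5 signal of the TBI rats (8.95, next 8.78). Control rat 2 is 1 of the 3 rats that stand apart.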

How the results depend on the processing

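For the 30 genes chosen by the rule for values, in 627 pairs of a gene and another setting, 608 kept the direction and the side of the threshold, 14 turned in sign and 5 gained a call: Syt2, Rab3c, Lin7a and Atp6v0b with array weights (log2 differences -0.24, -0.22, -0.30 and -0.13) and Lin7a without the 3 rats that stand apart (-0.31). For the other 25 of the 46 genes, 42 of 523 pairs turned, in 13 genes whose differences were 0.060 or smaller in size (Stxbp6 7 times, Syt3, Syt11 and Unc13c 6 times each), and 0 passed adjustment. Many of these pairs could not turn. In the 46 genes the difference is the same by construction without floor or filter and with the mean log2 filter. The same holds for the trend and robust options, the analysis of variance and averaged probe sets. The replicate block gave the same differences as leaving out TBI rat 6, so the pairs are not separate checks of direction. Among the 14 turns Vamp2 was 0.0037 with a second quantile normalization, 0.057 with array weights, 0.069 without the 3 rats, 0.038 without control rat 1, 0.0069 without control rat 5, 0.068 without TBI rat 1 and 0.0092 without TBI rat 3. Rph3a was -0.020 with median-centred arrays, -0.0094 without control rat 2, -0.0070 without TBI rat 2 and -0.0041 without TBI rat 5. Syt7 was -0.024 without control rat 2, and Syt1 0.0083 both with the replicate block and without TBI rat 6.

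With median-centred arrays 8 of the 46 genes and 3 recycling genes were lower at an unadjusted p under 0.05, as all probe sets moved from 888 higher and 334 lower to 510 higher and 723 lower. The median of the 46 genes was then -0.071 and that of all genes -0.017. With a mean log2 of at least 5, 1 other release gene was higher at an unadjusted p under 0.05, against 5.01% of all genes. With array weights 2 of the 46 genes, 1 other release gene and 1 filling gene were lower after adjustment, against 0.374% of all probe sets. At an unadjusted p under 0.05 the lower counts were 11 of the 46, 6 other release, 3 recycling and 8 filling genes, with 1 recycling gene higher. Of all probe sets, 7.66% were lower and 10.4% higher by that rule. Without the 3 rats that stand apart, a setting chosen after seeing the data, 14 of the 46, 8 other release, 6 recycling and 11 filling genes were lower and 1 recycling gene higher at an unadjusted p under 0.05, and 1 other release gene was lower after adjustment. Of all probe sets, 10.4% were lower and 9.76% higher without adjustment, and 0.514% lower with it. The cause was not tested.

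With each rat left out in turn, 4 to 8 of the 46 genes were lower at an unadjusted p under 0.05 and 0 passed adjustment, and their median lay between -0.058 and -0.033. Of all genes, 1.33% to 3.74% were lower by that rule. The count of 8 and the share of 3.74% both came without TBI rat 3. Over the same fits Vamp2 lay between -0.036 and 0.068, Rph3a between -0.0094 and 0.028, Syt7 between -0.024 and 0.081 and Syt1 between -0.048 and 0.0083. For other release genes these fits gave 2 to 4 lower and 2 to 3 higher, for recycling genes 0 to 4 lower and 0 to 1 higher, and for filling genes 2 to 4 lower. Higher by that rule were 3.59% to 8.21% of all genes. Recycling genes lower numbered 4 without TBI rat 3. The labels give no pairing of rats by replicate number. Deviations of same-numbered rats correlated at -0.65, -0.50, -0.41, -0.26 and 0.11. These values cannot exclude a pairing, because most of the within-group variance lay along a single direction. With the replicate block 3 of the 46 genes and 0 other release genes were lower at an unadjusted p under 0.05, against 0.857% of all genes. With 11 rats the number of arrays limits the precision, and the signals of Slc17a6, Rims3, Syt9 and Syt2 lay nearest to background among the genes given with a difference.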
